A study of Mus musculus with 16 samples.

Results

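The immunity-related GTPases and the guanylate-binding proteins are enzymes that mouse cells make after interferon, and that coat and break the vacuoles in which parasites and bacteria live inside a cell. Igtp, Irgm1 and Irgm2 are the regulatory members: they sit on the cell's own membranes and hold the effector members inactive there. Iigp1, Tgtp1, Tgtp2 and Ifi47 are effector members, and Gbp2, Gbp3 and Gbp6 are guanylate-binding proteins. Interferons switch these genes on through receptors at the cell surface and factors that bind their promoters, among them IRF1, and pluripotent cells are known for a weak interferon response. Chromatin at these 10 genes was examined in mouse induced pluripotent stem cell (iPSC) lines, with 10 of the 43984 genes of the histone table and 10 of the 55471 genes of the methylation table. The genes were chosen by their H3K4me3 values at Igtp and Irgm2, which were lowest in line PTC11 and highest in the TTF lines, so that H3K4me3 at the members is described here with no test.

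Of the 4 lines, PTC11 and PTC12 were made from kidney proximal tubule cells, and TTF1 and TTF4 from fibroblasts of the tail tip, and the comparison asks whether chromatin differs with the cell of origin. All lines came from mice fed tamoxifen and heterozygous for OKMS-250, rtTAROSA (neo-in), tdTomato and SLC34a1-GCE, in which doxycycline induces Oct4, Klf4, c-Myc and Sox2. In PTC, Cre driven by the SLC34a1 promoter opened the rtTA allele and double fluorescent cells were sorted, whereas TTF received Cre from a non-integrating plasmid. Each line is a clone that no longer needed doxycycline, grown in medium with serum and LIF, and the methods name no interferon treatment. Active genes carry H3K4me3 at their start and H3K36me3 over the transcribed body, repressed genes can carry H3K27me3, and methylated CpGs near a start site are common at silent genes. The files held 1 library per line and assay, except that both PTC libraries of H3K27me3 carry the name of PTC11.

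The deposited tables give no read counts or coverage, so the depth behind a value is unknown and precision rests on the 2 lines of each origin. A gene without a called peak has no histone value: H3K4me3 had a value at 34.4% to 45.4% of genes in a line, and H3K36me3 at 46.3% to 68.0%. Of 14 listed markers of pluripotent cells, 10 to 13 had H3K4me3 in a line, Pou5f1, Nanog and Sox2 in all 4. Between 3 and 8 of 13 fibroblast markers, 1 to 5 of 10 proximal tubule markers and 0 to 3 of 8 immune markers had it. The lines also differed across all genes. H3K36me3 had a median of 3.88 RPKM in PTC12 and 4.01 in TTF4, but of 1.60 in PTC11 and 1.18 in TTF1, and mean CpG methylation was highest in TTF4, at 0.649, followed by PTC12 at 0.482, TTF1 at 0.379 and PTC11 at 0.372.

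The starts of the regulatory genes are shown first, since the H3K4me3 values turn on them. Sequences are from RefSeq on GRCm38.p6, the same coordinates as mm10, and 8 of the 10 members were matched to an entry that is printed or described here. No entry was matched for Gbp6, and the Iigp1 promoter was left out and is not reported here. Capitals mark matches to the interferon gamma element GAS (letters TTCNNNGAA, its own reverse complement) and to the core of the interferon-stimulated response element ISRE (letters GAAANNGAAA), searched on both strands from 250 bases before to 50 bases after the start. The 250 bases before the start of Igtp lie at chr11:58199306-58199555 on the + strand, and those before the RefSeq start of Irgm2 at chr11:58214727-58214976 on the + strand.
Igtp: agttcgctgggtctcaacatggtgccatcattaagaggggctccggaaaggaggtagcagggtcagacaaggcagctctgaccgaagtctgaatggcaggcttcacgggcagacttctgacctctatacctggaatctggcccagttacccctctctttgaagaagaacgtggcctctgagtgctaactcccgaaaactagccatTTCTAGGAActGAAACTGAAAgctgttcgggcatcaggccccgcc
Irgm2: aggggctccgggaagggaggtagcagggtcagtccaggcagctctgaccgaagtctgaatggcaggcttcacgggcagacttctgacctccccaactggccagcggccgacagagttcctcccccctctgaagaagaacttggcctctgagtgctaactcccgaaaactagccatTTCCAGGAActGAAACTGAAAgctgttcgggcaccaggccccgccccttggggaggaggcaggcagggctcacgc

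The letters of the motifs can overlap at GAA, which they did not do in the members. Both promoters hold a GAS match followed by an ISRE match after 2 bases. In Igtp the GAS match began 45 bases and the ISRE match 34 bases before the start, and in Irgm2 they began 75 and 64 bases before it. Aligned over 265 bases with free ends, the Igtp and Irgm2 promoters were identical at 244, or 92.1%. The same pair of matches, again with 2 bases between them, stood before Tgtp1 (chr11:48992304-48992344, - strand) and Tgtp2 (chr11:49064263-49064303, - strand), whose promoters were identical at 80.5% of 272 aligned bases. Gbp3 (chr3:142559989-142560024, + strand), Gbp2 (chr3:142620594-142620623, + strand) and Irgm1 (chr11:48871425-48871460, - strand) held ISRE matches alone, overlapping pairs of them at Gbp3 and Irgm1. The matches are shown with 10 bases on each side.
Tgtp1: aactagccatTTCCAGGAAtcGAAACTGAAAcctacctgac
Tgtp2: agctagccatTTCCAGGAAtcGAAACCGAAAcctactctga
Gbp3: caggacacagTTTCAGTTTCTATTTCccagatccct
Gbp2: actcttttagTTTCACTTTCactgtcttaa
Irgm1: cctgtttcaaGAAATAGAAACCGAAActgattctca

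In all, 7 of the 8 members described here held an ISRE match, against 1079 of 27025 genes and 3.44% of 32851 promoters. A GAS match stood in 4 of them, against 2582 genes and 8.30% of promoters. Both stood together in 4 members, against 146 genes and 0.454% of promoters. A gene was counted if any of its entries held the match. The Ifi47 entry and the second Gbp3 entry held neither match in this window. A match of letters is a description of the reference sequence and not a measured binding site.

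The start positions used by the deposited tables did not always match those of RefSeq. The tables start Irgm2 at position 58199618 of chromosome 11, 62 bases after the start of Igtp at 58199556 and 15359 bases before the RefSeq start of Irgm2. Of 3 GENCODE transcripts of Irgm2, 1 starts there and the other 2 start 15452 and 15472 bases after Igtp. Values listed for Irgm2 at its start therefore describe the start of Igtp. The tables start Tgtp1 1926 bases before its RefSeq start, further than the 1 kb on each side over which methylation was averaged. For Igtp, Ifi47, Tgtp2, Gbp2 and Irgm1 the distance was between 0 and 263 bases, and for the nearer of the 2 RefSeq starts of Gbp3 it was 8 bases in the histone table. At Ifi47 this shared start lies at position 49076587, while its other GENCODE transcripts start between 49086700 and 49088264. Values at the Ifi47 start and its promoter sequence therefore describe the upstream start alone. Every start of the methylation table is that of a GENCODE transcript, and so lay by construction in an annotated exon of its own protein-coding gene.

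Some of these genes also share sequence. Of the 31-base words in the Tgtp2 gene body, 81.7% had another exact copy in the genome, as had 71.6% in Tgtp1 and 70.1% in Gbp6. The share was 15.8% in Igtp, 14.1% in Irgm2, 26.9% in Iigp1 and between 2.99% and 6.49% in Gbp2, Gbp3, Ifi47 and Irgm1. Between Tgtp1 and Tgtp2, 60.5% of the Tgtp1 gene body words were shared. From 2 kb before to 3 kb after the start, the share with another copy was 68.3% in Tgtp2, 40.5% in Gbp6 and 38.7% in Tgtp1. In that window it was 28.6% in Iigp1, 23.8% in Ifi47, 18.4% in Igtp and 18.0% in Irgm2. Gbp3 had 15.8%, Gbp2 3.98% and Irgm1 0.563%. Histone values at Tgtp1, Tgtp2 and Gbp6 may thus draw on reads from another copy, which was not tested. Methylation came from long reads, and the words were not counted in its own window.

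H3K4me3 was found at the start of only 3 of the 10 members in any line, Igtp, Irgm2 and Irgm1, while 49.5% of all genes had a value in at least 1 line. At the starts used, the 4 effector genes and the 3 guanylate-binding protein genes had no H3K4me3 value in any of the 4 lines. The window at Ifi47 did not reach its downstream transcript starts. The predicted gene Gm12188 lies within Ifi47 near those starts, on the other strand. It had 2.73 RPKM in PTC12 and 4.07 in TTF1, with no value in PTC11 or TTF4. Whether this mark belongs to Ifi47 was not tested. At Igtp, H3K4me3 was 0.365 RPKM in PTC11 and 2.02 in PTC12, against 2.24 in TTF1 and 2.71 in TTF4. Irgm2 was listed with the same 4 values as Igtp, and its H3K4me3 is no second measurement. The values of PTC12, TTF1 and TTF4 lay close together and PTC11 lay apart from them. The H3K4me3 library of PTC11 also carried a different number in its name from those of the other lines. Line and library number cannot be told apart there.

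The mean at Igtp was 1.19 ± 1.17 RPKM in PTC and 2.47 ± 0.33 RPKM in TTF (SD, n = 2 lines each). On the log2(RPKM + 1) scale TTF exceeded PTC by 0.77, less than the 1.15 between the PTC lines, while the TTF lines differed by 0.19. Without PTC11 the difference was 0.20, and without PTC12 it was 1.34. Both TTF lines above both PTC lines with PTC11 lowest, the pattern by which the genes were chosen, held for both members with 4 values and for 3.75% of the 13709 genes with H3K4me3 in 4 lines. Igtp lay at the inner edge of that pattern, with 2.24 RPKM in TTF1 against 2.02 in PTC12. Irgm1, outside it, had no value in PTC11, 3.62 RPKM in PTC12, 3.30 in TTF1 and 2.84 in TTF4. In Irgm1 the PTC12 value was the highest of the 3.

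Within each line H3K4me3 at Igtp was low. In PTC11 it stood above 1.6% of the genes with a value, in PTC12 above 10.0%, in TTF1 above 10.8% and in TTF4 above 11.2%. Relative to the median of the line it was 0.0990 in PTC11 and 0.441 in PTC12, against 0.447 in TTF1 and 0.742 in TTF4, and the order of the lines was the same as on the RPKM scale. PTC11 was the lowest line in 47.3% of the genes with 4 values. The mean of the other 3 lines over PTC11 was 6.36 at Igtp, and had a median of 1.34 over genes above 0 in PTC11. Igtp was chosen for this low PTC11 value, so that the ratio is a description and no test.

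Genes near the 2 loci were read for comparison, chosen after their values were seen as the named genes within 50 kb with H3K4me3 in 4 lines. Upstream of Igtp, Mrpl22, a mitochondrial ribosomal protein gene, had 4.85 RPKM in PTC11 and 4.67 in PTC12, against 5.42 in TTF1 and 4.55 in TTF4. Gemin5, which acts in the assembly of small nuclear ribonucleoproteins, had 3.98, 4.49, 7.49 and 5.40 RPKM in the same order. PTC11 was thus within the range of the other lines at Mrpl22, and at Gemin5 it was the lowest by a smaller ratio than at Igtp. The unnamed row XLOC_010071, which starts beyond the end of Irgm2, fell outside the rule. It had no value in PTC11, 3.79 RPKM in PTC12, 4.55 in TTF1 and 3.64 in TTF4, so a low PTC11 was not confined to Igtp. Near Irgm1, Trim7 had 1.39, 3.26, 2.56 and 2.59 RPKM, and Trim41 had 4.18, 6.59, 6.76 and 4.51 RPKM. The predicted gene Gm12184 had 1.84, 3.26, 2.56 and 3.38 RPKM, and Gm16170 had 3.40, 3.18, 5.60 and 3.39 RPKM. PTC11 was the lowest line at Trim7, Trim41 and Gm12184, and PTC12 at Gm16170. The rows of Trim7 and Gm12184 overlap and shared their values in PTC12 and TTF1, so they are not separate measurements there. The row XLOC_008172, whose start lies 654 bases from that of Irgm1, carried the same H3K4me3 values as Irgm1 in every line.

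**Figure D1:**
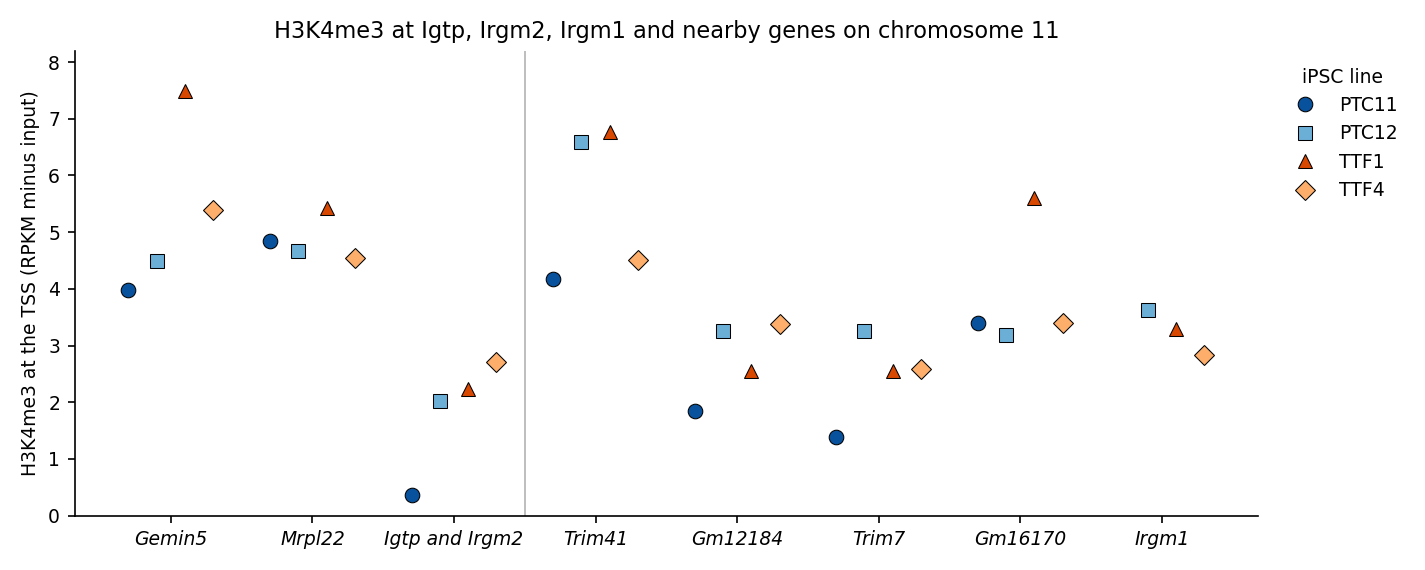
H3K4me3 (RPKM minus input, y axis) at Igtp and Irgm2, which share their values, at Irgm1 and at 6 named genes nearby, with 1 point per iPSC line; a missing point means no value. PTC11 lies at 0.365 RPKM at Igtp against 2.02 to 2.71 in the other lines, while at Mrpl22 the 4 lines lie between 4.55 and 5.42.

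By the shape of the H3K4me3 profile over the 4 lines, the genes most like Igtp among 13534 genes were Gm11400, Snord37, XLOC_017028, Zfp935 and Wfs1. Likeness was the distance between log2(RPKM + 1) values after the mean of each gene was subtracted, and it was 0.201 for Gm11400 and 0.328 for Wfs1. Gm11400 had 10.2 RPKM in PTC11 and 27.1 to 29.8 in the other lines, and Wfs1 had 1.58 in PTC11 and 4.05 to 4.81 in the others. With 4 lines, likeness rests mostly on the low PTC11 value.

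H3K27me3 was listed for none of the members in any of the 4 libraries. That mark had a value at only 11 to 144 of the 43984 genes in a library, so that few genes of any kind could show it.

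H3K36me3, which the choice of genes did not use, had a value at all 10 members in at least 1 line and at 5 of them in all 4. Neither origin was called higher: by limma with Benjamini-Hochberg adjustment over 17039 genes 0 of the 5 tested members passed, 0 had an unadjusted p under 0.05, and every adjusted p was 1.0, against 0.112% of all genes called and 0.681% with an unadjusted p under 0.05. At Igtp, H3K36me3 was 1.35 RPKM in PTC11 and 4.04 in PTC12, against 1.39 in TTF1 and 4.78 in TTF4. Lines PTC12 and TTF4 were the high ones there, as they were over all genes. The difference, TTF minus PTC, was 0.11 ± 1.0 (SE) on the log2(RPKM + 1) scale, with a 95% interval of -1.92 to 2.15 (limma, adjusted p = 1.0). Lines were not normalized to each other in this fit, and each origin held 1 high and 1 low line. The SE therefore includes that gap in level, and the test could hardly call a gene of this kind. After quantile normalization between lines the difference was 0.31, with an unadjusted p of 0.18 and an adjusted p of 0.998 (limma).

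Relative to the median of the line, H3K36me3 over the body of Igtp was 0.839 in PTC11 and 1.04 in PTC12, against 1.18 in TTF1 and 1.19 in TTF4. A value near the median does not by itself mark a gene as active here. Listed immune markers had medians of 1.62, 3.58, 0.953 and 3.88 RPKM in PTC11, PTC12, TTF1 and TTF4. All genes had 1.60, 3.88, 1.18 and 4.01 RPKM in that order, and pluripotent markers 1.89, 5.06, 1.30 and 4.77 RPKM. The Irgm2 row, whose body spans that of Igtp, lay at 0.789, 1.04, 1.04 and 1.19 in the same order. H3K36me3 at Irgm1, the other regulatory member, had a value in PTC11 alone, 1.35 times the median of that line and above 87.3% of its genes. By this measure PTC11 was the lowest line at Igtp and Irgm2, whose rows overlap, and at Gbp6, which had no H3K4me3 in any line, 3 of the 5 members with 4 values against 20.3% of all genes.

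Among the effector genes, Ifi47 was the member with both TTF lines above both PTC lines, 1.42 RPKM in PTC11 and 1.75 in PTC12, against 2.08 in TTF1 and 4.69 in TTF4. Its difference was 0.70 ± 0.95 on the log2 scale, with an interval of -1.17 to 2.57 and an adjusted p of 1.0 (limma). That pattern held in 1 of 5 tested members and in 0.452% of all genes. After quantile normalization between lines, which removes the difference in level, it held in Ifi47, Igtp and Irgm2, 3 of 5 members of which 2 overlap, against 16.3% of all genes. The difference at Ifi47 was then 0.87, with an unadjusted p of 0.027 and an adjusted p of 0.998 (limma), and was not called. The Ifi47 row lies within that of Olfr56, an olfactory receptor annotation that also spans Tgtp1 and Tgtp2, and H3K36me3 over these genes is not assigned to 1 of them alone.

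Iigp1 had 1.12, 3.45, 1.24 and 2.04 RPKM in PTC11, PTC12, TTF1 and TTF4, and the origins overlapped. Tgtp1 had 1.63 RPKM in PTC11, 6.06 in PTC12 and 8.82 in TTF4, with no value in TTF1, and the TTF4 value stood above 98.6% of the genes of that line. Tgtp2 was listed in TTF1 alone, at 0.136 RPKM. The near copies Tgtp1 and Tgtp2 never had an H3K36me3 value in the same line.

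Of the guanylate-binding protein genes, Gbp6 had 0.499 RPKM in PTC11 and 1.91 in PTC12, against 0.492 in TTF1 and 1.45 in TTF4. It stood at 0.311 to 0.492 of the median of each line, the lowest of the 5 members with 4 values in every line but PTC12, where Ifi47 at 0.452 was lower. Gbp3 had 2.36 RPKM in PTC11, 3.89 in PTC12 and 2.94 in TTF4, and Gbp2 had 1.52 in PTC11 and 1.32 in TTF1. The tables name Gbp6 by different gene identifiers, ENSMUSG00000079362 for histones and ENSMUSG00000104713 for methylation, at nearly the same position of chromosome 5.

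**Figure D2:**
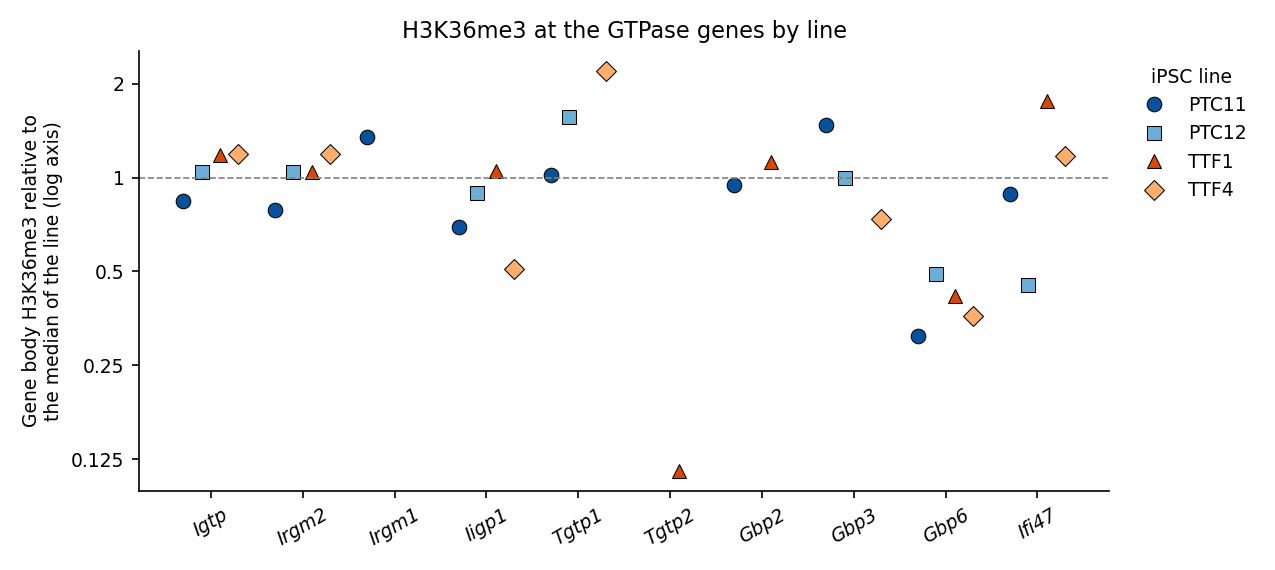
H3K36me3 over the gene body divided by the median of all genes with a value in that line (log axis), for the 10 members, with 1 point per iPSC line; the dashed line marks the median. Igtp and Irgm2 lie between 0.789 and 1.19, Gbp6 lies below 0.5 in every line, and missing points mean no value.

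CpG methylation within 1 kb of the start had a value at 9 of 10 members in every line and at Gbp6 in every line but PTC12. None of the 9 tested members was called between the origins by limma over 50657 genes, against 0.00395% of all genes called (2 genes), and 1 of the 9 had an unadjusted p under 0.05, against 4.74% of all genes. The fraction minus the mean of the line was used for the test, since methylation was highest in TTF4 at 75.4% of all genes, and at 6 of the 9 members.

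Tgtp2 showed the widest range. Its methylated fraction was 0.0185 in PTC11 and 0.255 in PTC12, against 0.427 in TTF1 and 0.799 in TTF4. The TTF values were both above the PTC values, and after centring they still were, at -0.349, -0.222, 0.053 and 0.155. TTF exceeded PTC by 0.389 ± 0.14 (SE), with an interval of 0.10 to 0.68, an unadjusted p of 0.0091 and an adjusted p of 0.803 (limma). Without TTF1 the difference was 0.440 and the adjusted p 0.023 (limma), with TTF4 as the lone TTF line assumed to vary like the others and 1019 genes called in all. Only 10 CpGs lie within 1000 bases of its start, with fewer at 15.1% of genes. In the wider histone window, from 2 kb before to 3 kb after the start, 68.3% of the 31-base words have another copy. Whether this affects the long reads used for methylation was not tested.

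Ifi47 had 0.400 in PTC11 and 0.578 in PTC12, against 0.750 in TTF1 and 0.785 in TTF4. Iigp1 had 0.0682, 0.535, 0.457 and 0.764 in the same order, with PTC11 far below the other 3. After centring, both TTF lines were above both PTC lines at Tgtp2, Ifi47 and Iigp1, 3 of 9 members, against 15.0% of all genes. The centred differences of 0.192 ± 0.16 at Ifi47 and 0.221 ± 0.15 at Iigp1 (SE) both had an adjusted p of 1.0 (limma). As deposited, without centring, the 3 were Tgtp2, Ifi47 and Gbp3, against 20.5% of all genes. An exact permutation test over 2 against 2 lines cannot give a two-sided p below 0.33, and gave 0.33 at Tgtp2, Ifi47 and Iigp1.

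The regulatory genes were among the less methylated members. Igtp had 0.240 in PTC11 and 0.356 in PTC12, against 0.171 in TTF1 and 0.567 in TTF4, and Irgm2, measured from nearly the same start, had 0.295, 0.309, 0.157 and 0.538. Irgm1 had 0.171, 0.420, 0.240 and 0.400. All 3 lay below the mean of the line in every line, and the origins overlapped at each. The centred difference at Igtp was -0.0161 ± 0.14 (SE), with an interval of -0.30 to 0.27 (limma, adjusted p = 1.0). After centring, PTC11 stood at -0.127 and PTC12 at -0.122 there. Their starts hold 30 to 49 CpGs within 1000 bases, against a median of 25 over all genes.

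Tgtp1 was the most methylated member in every line but TTF1, where Ifi47 at 0.750 was higher. It stood at 0.642 in PTC11 and 0.900 in PTC12, against 0.738 in TTF1 and 0.804 in TTF4, around the start that lies 1926 bases from that of RefSeq. Gbp2 hardly differed between lines as deposited, at 0.594, 0.599, 0.598 and 0.556, and was one of the members at which TTF4 was not the highest. Gbp3 had 0.422 in PTC11 and 0.658 in PTC12, against 0.661 in TTF1 and 0.728 in TTF4. Gbp6 had 0.229 in PTC11, 0.200 in TTF1 and 0.770 in TTF4, and was not tested. The centred differences at Gbp2, -0.107 ± 0.16, and Gbp3, 0.0676 ± 0.16 (SE), were smaller than their errors.

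**Figure D3:**
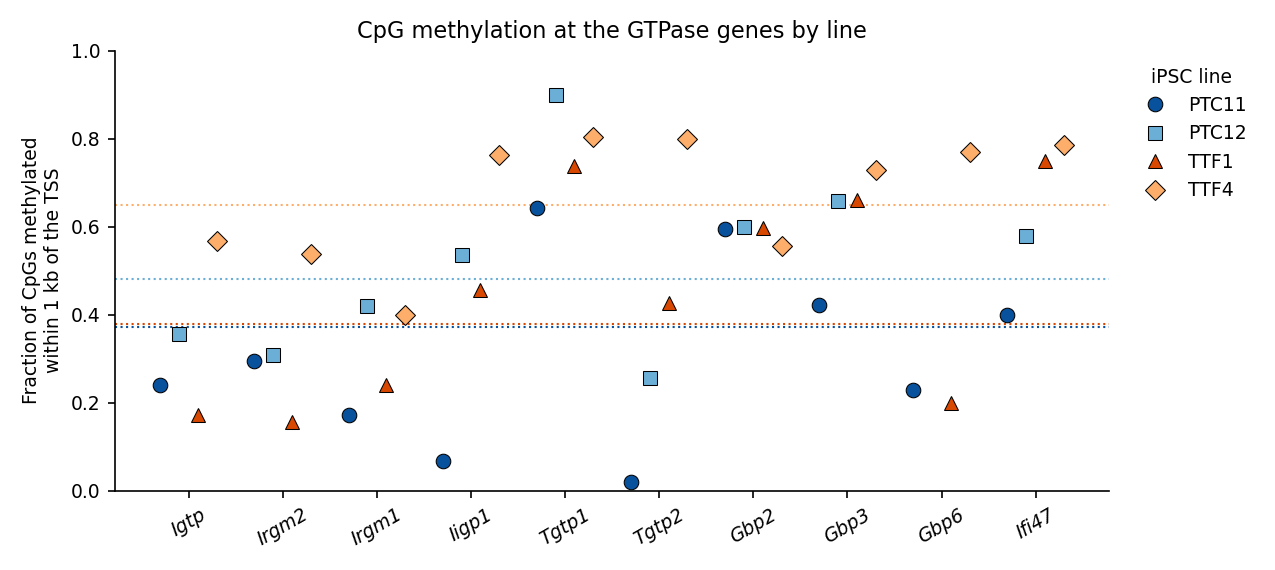
Fraction of CpGs methylated within 1 kb of the start (y axis) for the 10 members, with 1 point per iPSC line; dotted lines give the mean of each line over all genes in the same colour. Tgtp2 runs from 0.0185 in PTC11 to 0.799 in TTF4, and Gbp2 from 0.556 to 0.599.

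**Figure D4:**
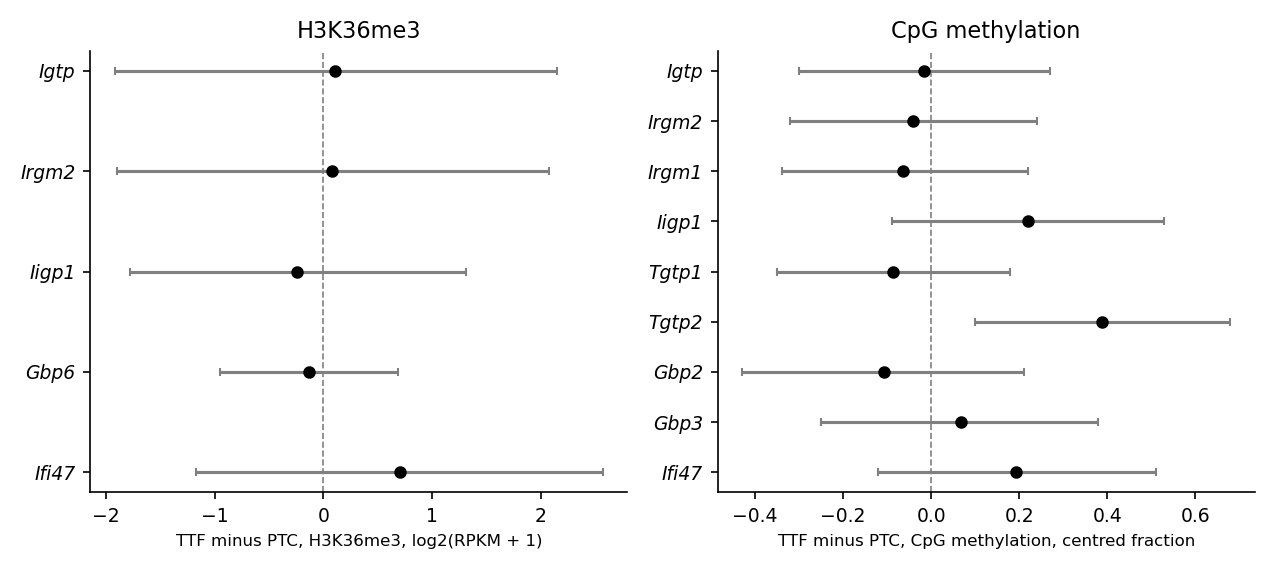
Differences between origins (TTF minus PTC) with 95% intervals from limma, for H3K36me3 in 5 members on the log2(RPKM + 1) scale (left) and for CpG methylation in 9 members on the centred fraction scale (right). All intervals but that of Tgtp2 methylation, 0.10 to 0.68 before adjustment, hold 0.

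The other genes of the interferon pathway were read in 6 lists of 92 genes in all: other GTPases of the family, receptors and JAK-STAT signalling, interferon regulatory factors, sensors of nucleic acid, antiviral genes and antigen presentation. For H3K4me3, 0 of 41 tested genes were called by limma, in either direction, and 0 had an unadjusted p under 0.05, against 0.481% of all genes called and 0.977% with an unadjusted p under 0.05. Their median difference was 0.11 on the log2 scale, with 30 of 41 higher in TTF, and that of all genes was 0.04. Of the other GTPases of the family, 11 are in the histone table and 1, Irgq, had H3K4me3 in all 4 lines, at 2.96 RPKM in PTC11 and 3.55 in PTC12, against 4.33 in TTF1 and 3.63 in TTF4. Gbp7 had 3.72 RPKM in PTC11, 3.09 in PTC12 and 5.03 in TTF1, and Gbp5 had 1.92 in TTF1 alone. The rest had no value. In contrast, 15 of 16 receptor and signalling genes had it in every line.

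The largest H3K4me3 differences were at Ifngr1, the ligand-binding chain of the interferon gamma receptor, with 2.56 RPKM in PTC11 and 6.52 in PTC12, against 7.98 in TTF1 and 4.50 in TTF4, and at Parp9, an ADP-ribosyltransferase family gene of the antiviral list. They were 0.44 ± 0.48 at Ifngr1 and 0.43 ± 0.48 at Parp9 (SE), with adjusted p of 1.0 (limma). In the other direction stood Tapbp, the tapasin gene of peptide loading, at -0.29 ± 0.36 and Bst2, the tetherin gene, at -0.28 ± 0.41 (adjusted p = 1.0, limma).

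For H3K36me3, 0 of 62 pathway genes were called and 0 had an unadjusted p under 0.05 (limma), against 0.112% and 0.681% of all genes. Their median was -0.17, with 15 of 62 higher in TTF, beside -0.14 over all genes. The outermost were Psmb9, an immunoproteasome subunit, at -0.72 ± 0.78, Mx1, an antiviral dynamin-like GTPase, at -0.68 ± 1.0, Oasl2 at 0.43 ± 1.1 and Stat2 at 0.40 ± 0.96 (SE, adjusted p = 1.0, limma).

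For CpG methylation, 0 of 90 pathway genes were called and 2 had an unadjusted p under 0.05 (limma), against 0.00395% and 4.74% of all genes. The median of the centred difference was 0.0275, with 50 of 90 higher in TTF, beside -0.01 over all genes. The highest was at Mx1, with 0.133 in PTC11 and 0.333 in PTC12, against 0.718 in TTF1 and 0.890 in TTF4. There TTF exceeded PTC by 0.484 ± 0.16 (SE) with an adjusted p of 0.601 (limma). Irgc1, an immunity-related GTPase gene of the germ line, followed at 0.319 ± 0.16, and the lowest were Ifi44 at -0.181 ± 0.13 and Tlr4 at -0.178 ± 0.16 (SE, adjusted p = 1.0, limma).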

How the data were processed

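The authors deposited 2 tables for 16 libraries of 4 iPSC lines. Histone marks are given as RPKM per gene, made by the authors by trimming with Trim Galore 0.0.4, aligning to mm10 with Bowtie2 2.1.0, calling peaks in each library against input with MACS2 2.0.10, counting reads in peaks with bedtools 2.17.0, subtracting the input RPKM and averaging the peaks from 2 kb before to 3 kb after the start (H3K4me3, H3K27me3) or, for H3K36me3, over the gene body. Methylation was deposited as a fraction of CpGs per gene, called with Nanopolish on reads aligned with minimap2 2.17-r941 and averaged in windows of 300 bp sliding by 30 bp within 1 kb of the start, not centred. Tool versions are from the submitters' processing notes. ChIP was done in duplicate by the methods, with 1 library per line and mark in the table. For H3K4me3 the values of PTC11 are named as number 2, and those of PTC12, TTF1 and TTF4 as number 1. What the number stands for is not stated. The tables hold neither read counts nor coverage, so counting error cannot be given. The p-values rest on the spread between lines, which for the histone marks was that of genes of like level.

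TTF were compared with PTC, 2 lines each, by limma 3.58.1 in R 4.3.3 (lmFit, then eBayes with trend set) on log2(RPKM + 1) and on the fraction minus the mean of the line, over genes with a value in all 4 lines, with Benjamini-Hochberg adjustment over all of them. A fold change on that log scale understates the change of low genes. In both histone fits limma took the spread wholly from the trend over all genes, so that an SE is that of genes of like level and not of the gene itself. limma was tested on simulated data with known changes. Some results are not reported here. Members were found by symbol, and the members and gene lists were chosen with earlier results of these data known. Named beside the members were pathway genes with an adjusted p under 0.05 or otherwise the 2 largest differences in each direction per assay, rows overlapping a member or sharing its values, and the 5 genes nearest to Igtp in H3K4me3 with a mean of at least 1 RPKM. Irgq, Gbp5, Gbp7 and the genes near Igtp and Irgm1 were named after their values were seen. Promoters came from RefSeq, transcripts from GENCODE, and CpGs and 31-base words were counted in the GRCm38.p6 chromosomes with Python 3.11.15 and numpy 2.4.6. Promoters were aligned with Biopython 1.88. The alternatives were another pseudocount (0.5), a filter at a mean of 1 RPKM, quantile normalization, no variance trend, missing values at 0, uncentred fractions, a logit scale, and each line left out in turn.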

Additional observations from a re-analysis of the deposited data

How the results depend on the processing

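No call at a member rested on the processing except at Tgtp2. For H3K36me3, 0 of the members were called under every alternative. For CpG methylation the count was 0 to 1 with a line left out and 0 under the others, Tgtp2 being called without TTF1 alone, at a difference of 0.440 (limma, adjusted p = 0.023, with the adjusted p running up to 1.0 under other alternatives). Called pathway genes numbered 0 in each assay, and 0 to 4 for methylation with a line left out. The counts over all genes were less stable. For H3K4me3, 66 genes were called, and 0 with the filter at 1 RPKM, with missing values at 0, without the variance trend and after quantile normalization, and 59 to 108 with a line left out. For H3K36me3, 19 became 0 under the same 4 alternatives, and 1 to 31 with a line left out. For methylation, 2 became 0 on the logit scale, without centring and after quantile normalization, 1 without the variance trend, and 0 to 1019 with a line left out. The cause was not tested.

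The H3K4me3 difference at Igtp, whose direction is fixed by the choice of the genes, ran from 0.20 without PTC11 to 1.34 without PTC12 and was 1.00 at the pseudocount of 0.5. Some differences that were never called changed sign. After quantile normalization, H3K36me3 was 0.07 at Iigp1 and 0.18 at Gbp6. Without centring, methylation was 0.0710 at Igtp, 0.0457 at Irgm2, 0.0240 at Irgm1 and 0.000261 at Tgtp1. With a line left out, H3K36me3 ran from -0.52 to 0.75 at Igtp, -0.61 to 0.77 at Irgm2, -0.77 to 0.30 at Iigp1 and -0.61 to 0.35 at Gbp6. Methylation ran from -0.0783 to 0.0462 at Igtp, -0.0963 to 0.0134 at Irgm2, -0.133 to 0.00668 at Irgm1, -0.189 to 0.0157 at Tgtp1, -0.263 to 0.0502 at Gbp2 and -0.0347 to 0.170 at Gbp3. The TTF lines were both above the PTC lines for H3K36me3 at 3 members after quantile normalization in place of 1, and for methylation at 1 in place of 3. No paired analysis was possible because the line numbers of the PTC lines (11 and 12) and of the TTF lines (1 and 4) are not shared. A fit without 1 line leaves a lone line in its origin, which is assumed to vary like the others.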
